A study of Saccharomyces cerevisiae with 36 samples.

Results

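The response of ribosome footprints to 6 h of iron depletion was compared between a double deletion mutant of budding yeast, cth1Δcth2Δ, and a wild type, W303a. For each gene the change from 0 h to 6 h in the wild type was subtracted from the change in the mutant on the log2 scale, so a positive value is a higher response in the mutant. This difference was taken for all 5315 features with enough counts, out of 7127 listed, and used 12 Ribo-seq libraries out of 36 libraries in the series. Ribo-seq counts mRNA fragments that a ribosome has shielded from nuclease, and RNA-seq of poly(A) RNA from the same lysates served as a second readout. The groups were the mutant after 6 h with the chelator, the mutant before it (0 h), the wild type after 6 h and the wild type at 0 h, each with 3 biological replicates. Libraries taken at 3 h entered the same fit and are given for context. All cultures grew in synthetic complete medium at 30 °C, and 100 µM of bathophenanthroline disulfonate (BPS), which binds ferrous iron, was added for 3 h or 6 h. The mutant lacked both genes in every group, so effects of CTH1 and CTH2 cannot be told apart.

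Cth1 and Cth2 are RNA-binding proteins with CCCH zinc fingers that attach to AU-rich elements after the stop codon of mRNAs and promote their decay when iron is short. Their known targets code for iron-using proteins of the respiratory chain, the citric acid cycle, haem synthesis and iron-sulfur enzymes, and CTH2 itself is switched on by the iron regulator Aft1. Another RNA-binding protein, Puf3, binds mRNAs of nuclear genes for mitochondrial proteins, above all those of the mitochondrial ribosome.

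The sequences of the AU-rich element TTATTTAT, which the Cth proteins recognise, are shown for 8 of the genes with higher responses that carry it. They include SDH2 and FMP10, the largest and second largest calls above 20 CPM. Not every gene with a large difference is shown: COX10 and HEM3 differed more than HEM1, and LIP5 more than LEU1. Each line holds 30 bases of the R64 assembly from RefSeq on the coding strand, and capitals mark the element nearest the stop codon.
SDH2: ctctatgactaTTATTTATttatcattggc
SDH1: tatttatttagTTATTTATtaacttactat
SDH4: tttactagtatTTATTTATtattatttatt
ACO1: tttaaaggttaTTATTTATtttgtcttctg
GLT1: agcttgagttaTTATTTATtttatgatcgt
LEU1: aaccaaactacTTATTTATtattaatacgt
HEM1: tttttttattcTTATTTATgtatgatactt
FMP10: ttgccgtctacTTATTTATttatttattta
The windows lie at chrXII:52951-52980 (minus strand) for SDH2, chrXI:169025-169054 (minus) for SDH1, chrIV:818609-818638 (plus) for SDH4, chrXII:735162-735191 (minus) for ACO1, chrIV:149171-149200 (minus) for GLT1, chrVII:476210-476239 (minus) for LEU1, chrIV:929190-929219 (plus) for HEM1 and chrV:553262-553291 (plus) for FMP10. In these genes the capitals began 14 to 164 nt after the stop codon. GLT1 had 13 overlapping or separate matches within 300 nt, SDH1 had 7, and SDH2 had 2.

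A second element, TGTANATA, in which N is any base, has the form that Puf3 binds, and it is shown for 8 genes because most mitochondrial ribosomal protein genes carried it. It was searched after the results had been seen.
MRPL27: ttcaatatgcgTGTAAATActagttttcga
MRPS9: ttcgttattccTGTAAATAaagttatatgt
MRPL19: ctgatctattcTGTAAATAtgtatataagt
IFM1: cacacaaaaacTGTACATAtgtaaaaatac
CYT2: acaactattccTGTAAATAaaaacataccc
COX17: caaccatttctTGTATATAtaagaataggt
SDH1: actcactaattTGTATATAtacctattaat
SDH2: atgacccggtcTGTATATAtgtccatcata
These windows lie at chrII:768698-768727 (plus strand) for MRPL27, chrII:536224-536253 (plus) for MRPS9, chrXIV:292088-292117 (minus) for MRPL19, chrXV:280171-280200 (plus) for IFM1, chrXI:277153-277182 (minus) for CYT2, chrXII:131155-131184 (minus) for COX17, chrXI:169090-169119 (minus) for SDH1 and chrXII:52915-52944 (minus) for SDH2. Their capitals began 18 to 198 nt after the stop codon.

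Total counts of the 12 Ribo-seq libraries ran from 607936, in mutant 6 h replicate 3, to 19382631, and 3 counts corresponded to 0.161 to 4.31 CPM (TMM-scaled counts-per-million units), the unit of every level below. Genes marking mating type a, the labelled type, were present, with STE2, the receptor for alpha factor, at 48.9 to 327 CPM. The weakest of these, AGA2, ran from 0 to 34.5 CPM. Those of mating type alpha were low, with STE3 at 0.388 to 12.9 CPM and MF(ALPHA)1 at 0 to 8.19 CPM. STE3 footprints rose by 6 h in both strains (log2 change 3.59 in the mutant and 2.82 in the wild type). Log-scale profiles of all 0 h libraries correlated at r = 0.95 to 0.98 across genes, whatever the strain. At 6 h the values were 0.86 to 0.94 within a strain and 0.81 to 0.94 between strains, so the 6 h libraries did not group by strain. The highest value between strains, 0.94, was that of mutant 6 h replicate 1 with wild-type 6 h replicate 1, which had 0.92 and 0.86 with its own group. Mutant 6 h replicate 3 had 0.82, 0.89 and 0.89 with the wild type and 0.89 and 0.88 with its own group.

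CTH1 and TIS11, the standard symbol of CTH2, checked the labels. CTH1 had 0, 1 and 0 footprint reads in the 3 mutant libraries at 6 h and 3, 1 and 3 at 0 h, against 98, 711 and 294 in the wild type at 6 h and 39, 31 and 561 at 0 h. TIS11 had 1, 2 and 2 reads in the mutant at 6 h and 12, 14 and 17 at 0 h, against 2140, 10284 and 6329 in the wild type at 6 h and 6, 13 and 56 at 0 h. The mutant libraries thus lacked the wild-type rise of TIS11, and its difference passed the threshold (adjusted p = 0.000194). Its fitted log2 difference of -11.07 rests on the 1, 2 and 2 reads of the mutant at 6 h and is not read as a fold. At 0 h the TIS11 reads overlapped between the strains, so TIS11 does not check the 0 h labels. TIS11 RNA at 0 h also overlapped, at 3.305, 0 and 10.27 CPM in the mutant and 6.562, 4.818 and 9.581 CPM in the wild type. CTH1 did not pass (log2 difference -3.52, adjusted p = 0.124), and its reads were few in mutant libraries at both times.

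The 6 h footprint response differed between the strains for 158 of 5315 features at an adjusted p under 0.05, which is 2.97%. Levels are relative to the other genes of a library, and in bulk cultures fewer footprints per cell and fewer cells of a kind cannot be told apart. The response was higher in the mutant for 118 (2.22%) and lower for 40 (0.753%). Pairs of 6 h libraries were also left out, a choice made after their values were seen. Without wild-type replicate 1 and mutant replicate 1, the pair most alike between strains, 335 passed, 178 higher and 157 lower. Without wild-type replicate 1 and mutant replicate 3, 576 passed, 352 higher and 224 lower. In both, 154 of the 158 were among the calls. Leaving out a single library of the 12 gave 81 to 348. The count was 83 and 81 without mutant 0 h replicates 1 and 2, 81 without mutant 6 h replicate 2, 97, 95 and 86 without wild-type 0 h replicates 1, 2 and 3, 348 without wild-type 6 h replicate 1, and 100 without wild-type 6 h replicate 3. When all libraries were thinned to the 607936 counts of the smallest, 2 genes passed, TIS11 and ACO1, with edgeR and 15 with DESeq2. The median over all features was -0.10, and scaling by total counts moved it to 0.03 and the split to 140 higher and 17 lower.

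The 118 genes with higher responses came from unlike changes in the strains. Footprints of 44 rose in the mutant and fell in the wild type. Another 35 fell in the wild type and did not pass in the mutant, and 32 rose in the mutant and did not pass in the wild type. Footprints fell in both strains for 5 and rose in both for 2. Of the 40 with lower responses, 19 fell in the mutant without passing in the wild type, 8 fell in both, 7 rose in the wild type without passing in the mutant, 4 rose in both, and 2 fell in the mutant and rose in the wild type. For context, 50.8% of all features changed between 6 h and 0 h in the mutant (26.2% rose and 24.5% fell), and 52.9% in the wild type (28.5% rose and 24.3% fell). All 3 mutant libraries at 6 h lay above all 3 wild-type libraries for 117 of the 118 and below them for 39 of the 40 (7.92% and 8.96% over all features). The calls were made from these same libraries, so this separation follows from the choice of genes and supports nothing further.

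**Figure D1:**
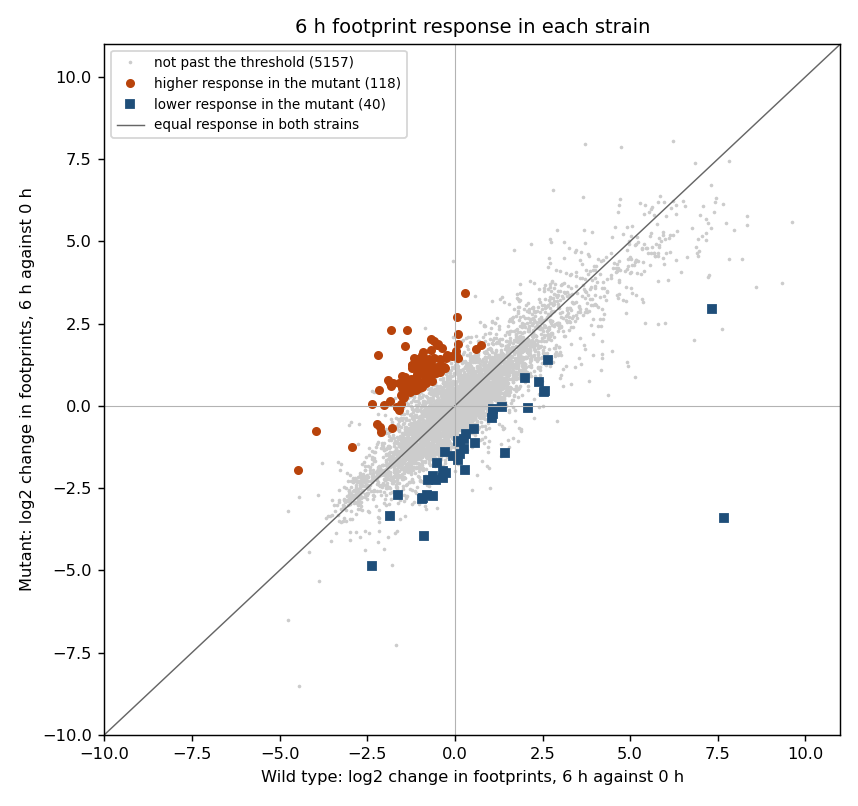
Log2 change in footprints from 0 h to 6 h in the mutant (vertical axis) against the wild type (horizontal axis) for all 5315 features. The 118 genes with a higher response in the mutant lie above the line of equal response and the 40 with a lower response below it; the isolated square at the lower right is the deleted gene TIS11.

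Respiratory iron-sulfur enzymes were among the genes with the largest differences. Succinate dehydrogenase links the citric acid cycle to the respiratory chain, and all 4 of its main subunits had higher responses in the mutant. SDH2 codes for the subunit that holds the iron-sulfur clusters. It had 530, 503 and 162 CPM in the mutant at 6 h and 86.1, 71.1 and 83.7 CPM at 0 h, against 27.6, 13.9 and 25.1 CPM in the wild type at 6 h and 69.8, 83.7 and 80.8 CPM at 0 h. The strains overlapped at 0 h and were far apart at 6 h, even for mutant replicate 3, the lowest of its group. The log2 difference in response was 4.15 (SE 0.53, adjusted p = 0.00117), the largest above 20 CPM in these libraries, and SDH2 footprints rose in the mutant and fell in the wild type.

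SDH1, the flavoprotein subunit, had 747, 770 and 493 CPM in the mutant at 6 h and 201, 137 and 232 CPM at 0 h, against 56.4, 49.9 and 81.3 CPM in the wild type at 6 h and 173, 138 and 190 CPM at 0 h. Its log2 difference was 3.23 (SE 0.45, adjusted p = 0.00187). Membrane anchor SDH4 gave 2.74 (SE 0.55, adjusted p = 0.0126) and membrane anchor SDH3 gave 2.00 (SE 0.46, adjusted p = 0.025). SDH3 fell in the wild type (log2 change -1.85) and its change in the mutant, 0.14, did not pass. Its call was lost without any single library except mutant 6 h replicate 3 and wild-type 6 h replicate 1. The 4 assembly factors SDH5 to SDH8 did not pass, with log2 differences between -0.44 and 1.45. Over the list of 8 the median was 1.72 against -0.10 for all features, and leaving out a single library kept 3 to 6 past the threshold. SDH9, a close relative of SDH1 outside the list and chosen after its values were seen, passed at low levels (log2 difference 3.69). It had 6.4, 7.82 and 2.88 CPM in the mutant at 6 h and 0, 0.545 and 0.762 CPM in the wild type at 6 h. The value of mutant replicate 3 lies under the 4.31 CPM that 3 counts make in that library. How reads shared with SDH1 were counted is not given in the sources used here, so SDH9 is not read as a separate result.

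ACO1 codes for aconitase, an iron-sulfur enzyme of the citric acid cycle. Its footprints stood at 10310, 14630 and 8479 CPM in the mutant at 6 h and 1186, 834 and 1049 CPM at 0 h, against 842, 1251 and 1074 CPM in the wild type at 6 h and 876, 942 and 769 CPM at 0 h. The mutant at 6 h was high in every library, and the other 3 groups overlapped. The log2 difference was 3.15 (SE 0.51, adjusted p = 0.00507). No other member of the list of 14 citric acid cycle enzymes passed with edgeR, where 5 had an unadjusted p under 0.05, and DESeq2 called 3 in all. Over all 5315 features, 767 had an unadjusted p under 0.05 with edgeR, and DESeq2 called 266. Leaving out mutant 6 h replicate 3 gave 4, and leaving out wild-type 6 h replicate 1 or 3 gave 2. Their median was 0.68, and KGD1, a subunit of 2-oxoglutarate dehydrogenase, missed the threshold at a log2 difference of 1.25 (adjusted p = 0.0503).

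GLT1, glutamate synthase with an iron-sulfur cluster, differed in another way. It had 999, 668 and 822 CPM in the mutant at 6 h and 1399, 1281 and 1522 CPM at 0 h, against 32.8, 91.7 and 72.5 CPM in the wild type at 6 h and 1106, 1041 and 932 CPM at 0 h. Wild-type footprints fell (log2 change -3.96), and in the mutant the change was -0.76 and did not pass (adjusted p = 0.11). The log2 difference was 3.20 (SE 0.55, adjusted p = 0.00609).

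On the list of 8 enzymes with iron-sulfur or haem groups in amino acid, biotin and lipoate synthesis, 4 had higher responses and none was lower, and the median was 1.73. Besides GLT1 these were LEU1 of leucine synthesis (log2 difference 2.35, SE 0.39, adjusted p = 0.00517), LIP5, the lipoate synthase (2.46, adjusted p = 0.00667), and ILV3 of branched-chain amino acid synthesis (1.71, adjusted p = 0.0151), lost without mutant 0 h replicate 1. LEU1 footprints were 859, 1108 and 1209 CPM in the mutant at 6 h and 428, 380 and 346 CPM at 0 h, against 118, 170 and 139 CPM in the wild type at 6 h and 288, 256 and 247 CPM at 0 h. They rose in the mutant and fell in the wild type. Biotin synthase BIO2 did not pass (1.76, adjusted p = 0.23), and LYS4, MET5 and MET10 lay between -0.04 and 0.38.

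On the list of haem synthesis and haem oxygenase 4 of 11 genes had higher responses and none was lower, with a median of 1.06. HEM1, the enzyme of the first step, had 254, 343 and 320 CPM in the mutant at 6 h and 183, 200 and 208 CPM at 0 h, against 79.2, 121 and 103 CPM in the wild type at 6 h and 212, 157 and 293 CPM at 0 h. Its log2 difference was 1.76 (SE 0.34, adjusted p = 0.0101). HEM3 (1.81), HEM15, the ferrochelatase that puts iron into haem (1.72), and COX10, which makes haem for cytochrome oxidase (2.15), also passed. The haem peroxidase CCP1, on another list, gave 2.56 (SE 0.54, adjusted p = 0.0151). It was the only 1 past the threshold of 3 tested genes for haem peroxidases, catalases and flavohaemoglobin, at a median of 0.82. HEM15 was lost without any of 7 single libraries, COX10 without any of 4 and CCP1 without any of 3, and mutant 0 h replicates 1 and 2 were among these for each of the 3 genes.

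Of 16 genes for iron-sulfur cluster assembly in mitochondria, 3 passed with higher responses and the median was 1.04. They were ISA1 (log2 difference 2.04), the scaffold NFU1 (1.58) and frataxin YFH1 (1.47). None of 8 genes for the cytosolic assembly pathway passed with edgeR or DESeq2 or had an unadjusted p under 0.05, and their median was 0.13. ISA1 was lost without any of 5 single libraries, among them mutant 0 h replicates 1 and 2, and YFH1 without any of 10. In the respiratory chain QCR2 of the bc1 complex passed (2.12, adjusted p = 0.0232) among 11 listed genes with a median of 1.54, all of them positive and it was lost without any of 8 single libraries, wild-type 0 h replicates 1 to 3 among them. With edgeR ATP2 was the only 1 of 15 ATP synthase subunits past the threshold (1.14, adjusted p = 0.0473), lost without any of 10 single libraries. COQ6 (1.80) and COQ1 (1.36) passed out of 10 genes for coenzyme Q, and COQ1 was lost without any of 9 single libraries and COQ6 without mutant 0 h replicate 1 or wild-type 0 h replicate 3. None of 10 nuclear cytochrome oxidase subunits passed with edgeR, with a median of 0.42, and neither did any of 6 quinone or cytochrome c dehydrogenases, of 7 di-iron and haem enzymes of lipid synthesis or of 6 genes for the HAP factors and ROX1. At an unadjusted p under 0.05 edgeR gave 1 of the cytochrome oxidase subunits, 1 dehydrogenase, 1 lipid enzyme and 2 of the HAP factors and ROX1, and DESeq2 called 0, 1, 0 and 1 of these lists. The counts over all 5315 features were 767 at an unadjusted p under 0.05 with edgeR and 266 called by DESeq2.

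Several of these list counts were larger in the fits without a pair of 6 h libraries, and so were the calls over all features. Against 158 of 5315 with all libraries, 576 of 5398 passed without wild-type replicate 1 and mutant replicate 3. Without both replicates 1 it was 335 of 5352. Without wild-type replicate 1 and mutant replicate 3 the ATP synthase subunits had 11 of 15 past the threshold, with a median of 1.55 against 0.68 with all libraries. The citric acid cycle then had 7 of 14, the bc1 complex and cytochrome c 4 of 11, mitochondrial iron-sulfur assembly 7 of 16, haem synthesis 6 of 11 and succinate dehydrogenase with its assembly factors 6 of 8. Without wild-type replicate 1 and mutant replicate 1 the same lists had 1, 1, 1, 5, 4 and 5 in this order, starting with the ATP synthase subunits. All of these calls were higher in the mutant.

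**Figure D2:**
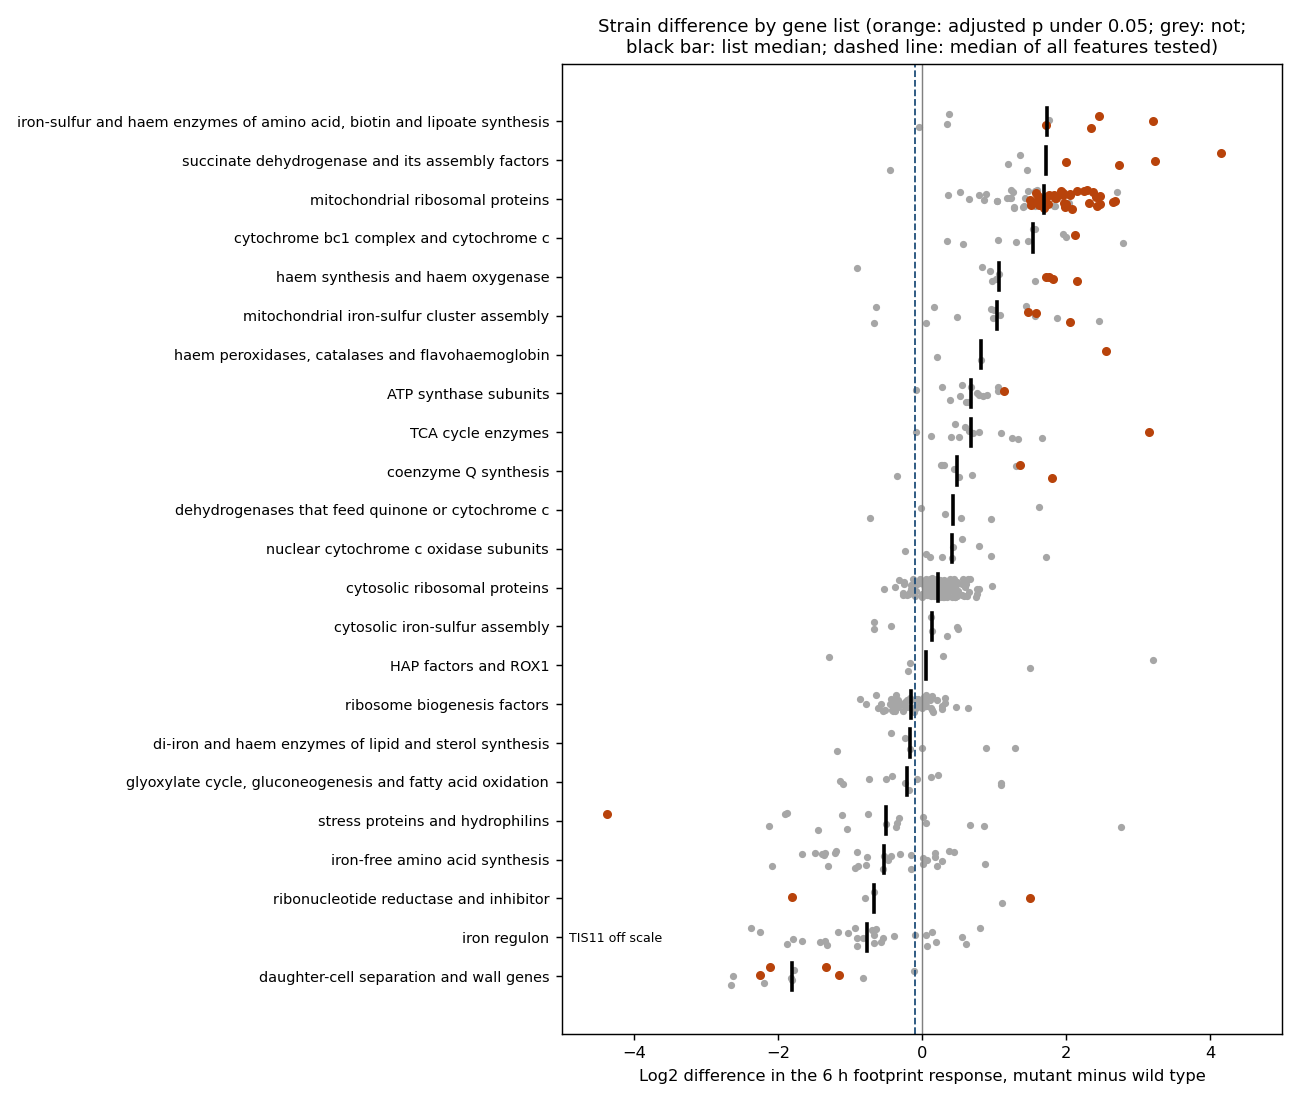
Log2 difference in the 6 h footprint response, mutant minus wild type (horizontal axis), for each gene of 23 lists, ordered by list median. Mitochondrial ribosomal proteins, succinate dehydrogenase and iron-sulfur or haem enzymes of amino acid, biotin and lipoate synthesis have the highest medians (1.69 to 1.73), and daughter-cell genes the lowest (-1.81).

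Mitochondrial ribosomal proteins made up the largest group by number. These proteins build the ribosome that translates the few genes of the mitochondrial genome. Of 67 listed members, 37 had higher responses and none was lower, which is 55.2% against 2.22% of all features. All 67 log2 differences were positive, from 0.36 to 2.71, with a median of 1.69. Footprints of 30 rose in the mutant and none fell there, and 47 fell in the wild type and 1 rose. Leaving out a single library kept 28 to 52 past the threshold, 49 passed without wild-type and mutant 6 h replicates 1, and 56 passed without wild-type 6 h replicate 1 and mutant 6 h replicate 3. Over all features these pair fits called 335 of 5352 and 576 of 5398. After thinning to the smallest library the median was 1.72 and none of 66 passed with edgeR, where 131 of all features had an unadjusted p under 0.05, and 2 passed with DESeq2.

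Summed over the list, footprints of mitochondrial ribosomal proteins were 5535, 6716 and 5011 CPM in the mutant at 6 h, 4673, 3312 and 3609 CPM at 3 h and 3595, 2978 and 3493 CPM at 0 h. In the wild type they were 2666, 2106 and 1821 CPM at 6 h, 2828, 2285 and 3070 CPM at 3 h and 3769, 3722 and 3524 CPM at 0 h. At 0 h the strains overlapped, and at 6 h every mutant library lay above every wild-type one. Proteins of the large subunit, by the names MRPL, held 21 calls among 34 genes (median 1.79), and those of the small subunit, by the names MRPS and RSM, 9 among 20 (median 1.63).

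MRPL27 of the large subunit had 145, 189 and 99.2 CPM in the mutant at 6 h and 60.9, 63.5 and 62 CPM at 0 h, against 41.1, 32 and 25.5 CPM in the wild type at 6 h and 69.8, 68.9 and 59.8 CPM at 0 h. Its log2 difference was 2.24 (SE 0.33, adjusted p = 0.00322). MRPS9 of the small subunit had 126, 168 and 108 CPM in the mutant at 6 h and 65.1, 52.5 and 64.4 CPM at 0 h, against 38.1, 33.8 and 26.1 CPM in the wild type at 6 h and 64.3, 82 and 81.7 CPM at 0 h. Here the difference was 2.37 (SE 0.36, adjusted p = 0.00389). In both genes the mutant at 6 h was high and the wild type at 6 h low, with the 0 h groups between them. The highest values past the threshold were RSM19 (2.67) and MRPL19 (2.65), and MRPL51 (2.71) had few reads and did not pass.

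**Figure D3:**
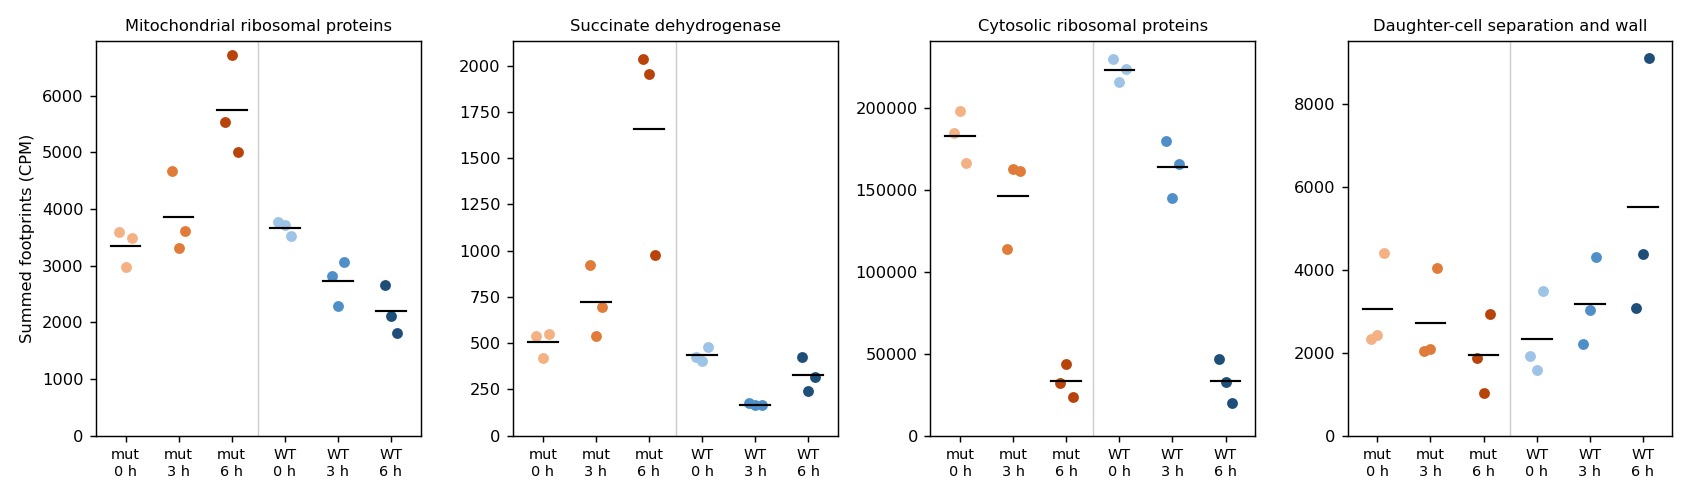
Summed Ribo-seq footprints (CPM, linear axes from 0) of 4 gene lists in each library (points) with group means (lines), for mutant (mut) and wild type (WT) at 0 h, 3 h and 6 h. Mitochondrial ribosomal proteins reach 5011 to 6716 CPM in the mutant at 6 h against 1821 to 2666 CPM in the wild type, while the cytosolic ribosomal proteins overlap between strains at 6 h.

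The cytosolic ribosome behaved otherwise. None of its 135 tested protein genes passed with edgeR or DESeq2, 2 had an unadjusted p under 0.05 with edgeR, and their median was 0.22 (0.36 with scaling by total counts). Without wild-type 6 h replicate 1 and mutant 6 h replicate 3, 4 of 136 passed, against 576 of 5398 over all features. All 4 were higher, and the list median was 0.82. Footprints of 133 fell in the mutant and of 134 in the wild type. Their sums were 32100, 43710 and 23890 CPM in the mutant at 6 h and 185000, 198100 and 166100 CPM at 0 h, against 47020, 32550 and 20160 CPM in the wild type at 6 h and 230100, 215900 and 223900 CPM at 0 h. Many of these genes have near-identical copies, and how reads shared by copies were counted is not given in the sources used here. None of 53 ribosome biogenesis factors passed with either tool or had an unadjusted p under 0.05 (median -0.16).

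Other mitochondrial genes followed among the calls on no list, and the groups that follow were put together after their values were seen, so they carry no test as groups. There were 9 mitochondrial ribosomal proteins under other names, such as IMG1, RML2 and MNP1, with log2 differences of 1.57 to 2.50. Import, protease and chaperone components numbered 10, at 1.41 to 2.10, including HSP60 and SSC1, which help imported proteins to fold. Assembly factors of the respiratory complexes and ATP synthase numbered 13, at 1.53 to 2.59, including CYT2, which attaches haem to cytochrome c1, and COX17, which carries copper for cytochrome oxidase. IFM1, the mitochondrial translation initiation factor (2.64), the recycling factor RRF1 and the tRNA synthetases MSY1 and MSK1 also passed. PUF3 itself was higher (1.1, SE 0.28, adjusted p = 0.0447), at 267, 303 and 329 CPM in the mutant at 6 h and 87.2, 87.2 and 76.3 CPM at 0 h, against 124, 152 and 154 CPM in the wild type at 6 h and 72.1, 103 and 82.9 CPM at 0 h.

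COX17 had 80.4, 180 and 168 CPM in the mutant at 6 h and 64, 41.5 and 51.8 CPM at 0 h, against 14, 21.4 and 33.7 CPM in the wild type at 6 h and 48.8, 61 and 42.9 CPM at 0 h. All mutant libraries at 6 h lay above every other library of the gene in these 4 groups. Its log2 difference was 2.55 (SE 0.53, adjusted p = 0.0151), lost without mutant 0 h replicate 2. The remaining genes among the 14 largest were FMP10 and AIM32, with products found in mitochondria, and MYG1, which fell in both strains and less far in the mutant (log2 change -1.94, against -4.46 in the wild type). MYG1 was lost without any of 8 single libraries, all 0 h libraries among them, and FMP10 and AIM32 kept their calls throughout. Among other iron-linked genes on no list, all chosen after their values were seen, RLI1, an iron-sulfur protein needed to recycle cytosolic ribosomes, gave 1.68, and CCC1, which moves iron into the vacuole, gave 1.1.

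**Figure D4:**
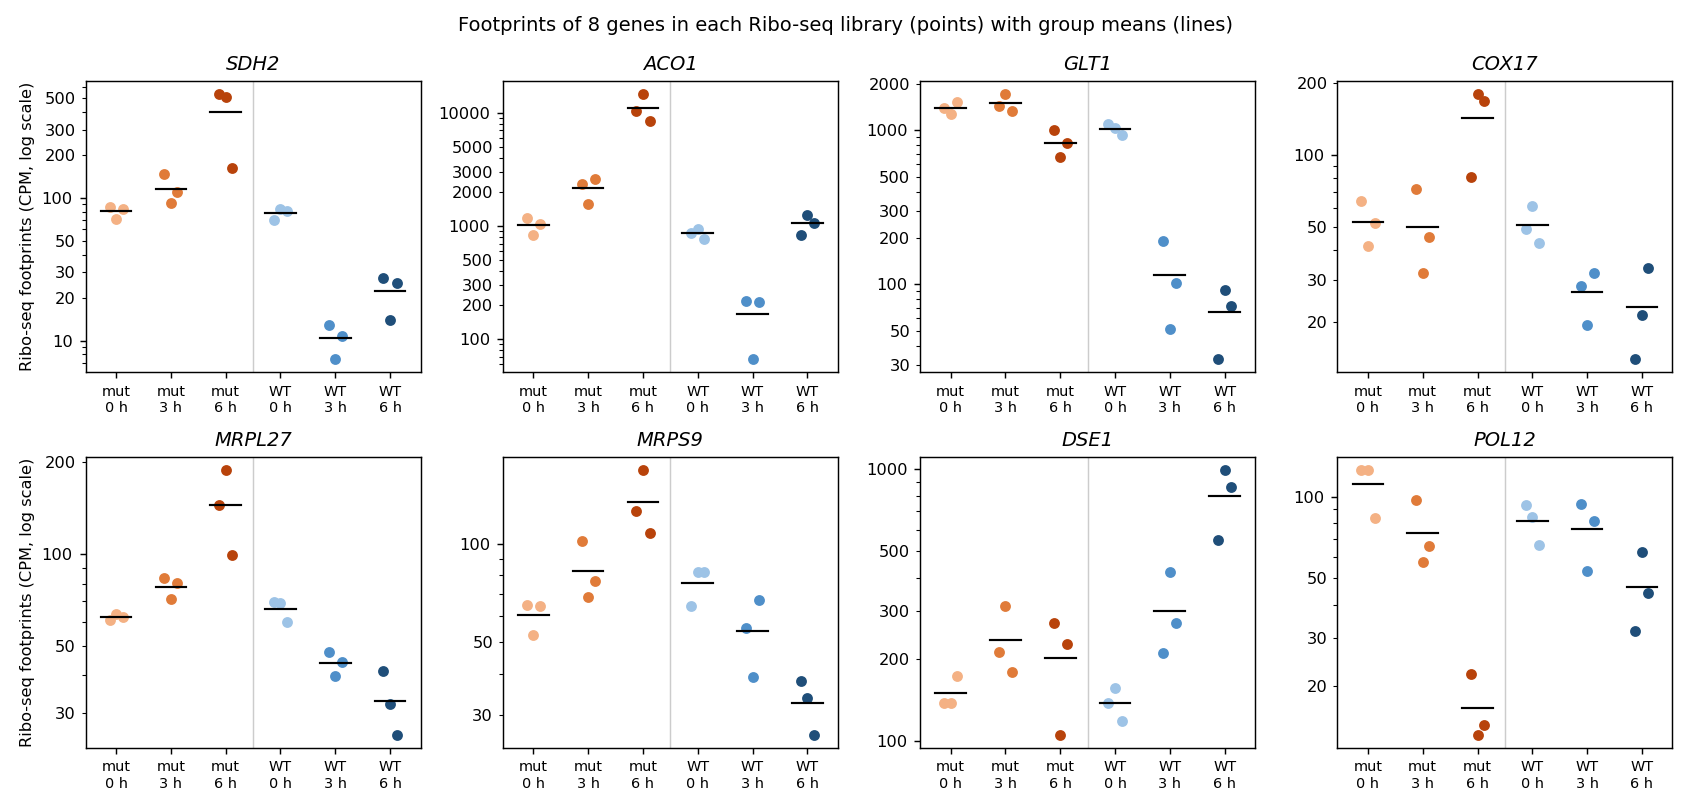
Footprints (CPM, log axes) of 8 genes in each of the 18 Ribo-seq libraries (points) with group means (lines), for mutant (mut) and wild type (WT) at 0 h, 3 h and 6 h. SDH2, ACO1, GLT1, COX17, MRPL27 and MRPS9 are higher in every mutant library than in every wild-type library at 6 h, and DSE1 and POL12 are lower.

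The 40 genes with lower responses included few iron genes. Of 30 genes of the iron regulon, which Aft1 switches on to take up and spare iron, TIS11 alone passed. Footprints of 27 rose in the mutant and of 28 in the wild type. The median difference was -0.76 against -0.10 for all features, and 23 of the 30 were negative. Summed footprints of the regulon were 43240, 52210 and 51380 CPM in the mutant at 6 h and 2829, 2851 and 1598 CPM at 0 h, against 37880, 41720 and 45700 CPM in the wild type at 6 h and 899, 1612 and 1329 CPM at 0 h. The mutant was higher on average at both times, and the ranges overlapped at both. FET3, the ferroxidase of iron uptake, had 1063, 1285 and 3057 CPM in the mutant at 6 h and 404, 402 and 437 CPM at 0 h, against 1522, 1835 and 4396 CPM in the wild type at 6 h and 234.8, 237 and 399 CPM at 0 h. Every mutant library was above every wild-type one before the chelator, and after 6 h the ranges overlapped (log2 difference -1.03, adjusted p = 0.603).

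Genes for daughter-cell separation and the cell wall of the new bud gave the lowest list median, -1.81, with all 12 differences negative and 4 past the threshold. DSE1, a daughter-cell wall gene, had 273, 106 and 228 CPM in the mutant at 6 h and 139, 138 and 174 CPM at 0 h, against 548, 994 and 857 CPM in the wild type at 6 h and 138, 157 and 119 CPM at 0 h. Footprints rose in the wild type and the change in the mutant did not pass; the log2 difference was -2.11 (SE 0.49, adjusted p = 0.0276). BUD9, a marker of the bud site (-2.26, adjusted p = 0.0195), DSE3 (-1.33) and ASH1, a repressor that collects in daughter cells (-1.15), also passed. These calls depended on single libraries. None of the 12 passed without mutant 0 h replicate 2, mutant 6 h replicate 2 or wild-type 0 h replicate 3, 1 passed without mutant 0 h replicates 1 or 3, wild-type 0 h replicate 2 or wild-type 6 h replicates 2 or 3, and 2 passed without wild-type 0 h replicate 1. Without mutant 6 h replicate 3 there were 3, and without mutant or wild-type 6 h replicate 1 there were 5. Over these 12 omissions the median stayed between -2.31 and -1.22. Summed footprints of the list were 1867, 1027 and 2927 CPM in the mutant at 6 h and 2329, 2436 and 4413 CPM at 0 h, against 3072, 4369 and 9100 CPM in the wild type at 6 h and 1929, 1575 and 3477 CPM at 0 h. Replicate 3 had the highest sum in each of these groups and at 3 h in both strains.

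All 4 subunits of DNA polymerase alpha-primase, which starts DNA strands in replication, were also lower. POL12 had 22.1, 13.2 and 14.4 CPM in the mutant at 6 h and 126, 126 and 83.7 CPM at 0 h, against 31.9, 62.8 and 44.2 CPM in the wild type at 6 h and 93.8, 84.6 and 66.5 CPM at 0 h. Footprints fell in both strains and further in the mutant (log2 difference -1.91, SE 0.45, adjusted p = 0.0292), though not with scaling by total counts. PRI2 gave -1.89, POL1 -1.48 and PRI1 -1.13; POL1 and PRI1 were chosen after their values were seen, as was the grouping of these 4. HCM1, a transcription factor of S phase, gave -2.12 and BUD4 gave -1.90. RNR1, the large subunit of ribonucleotide reductase, was lower (-1.81, adjusted p = 0.0487), and RNR4, a small subunit, was higher (1.50, SE 0.30, adjusted p = 0.013). RNR1 was among the calls nearest the threshold and was lost with RLE factors, with total counts, with only the 4 groups fitted and without any of 9 single libraries. PRI2 was lost without any of 11 single libraries, POL12 without any of 9, BUD4 without any of 8 and HCM1 without any of 7. Mutant 0 h replicates 1 and 2 were among these libraries for each gene. PRI2 was also lost with RLE factors, with total counts, with no low-count filter and with only the 4 groups fitted. BUD4 was also lost with total counts and with only the 4 groups fitted.

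GRE1, a stress-induced hydrophilin, had the lowest value after TIS11. Its footprints were 19.4, 15.9 and 17.2 CPM in the mutant at 6 h and 3.88, 5.08 and 0.607 CPM at 0 h, against 465, 183 and 217 CPM in the wild type at 6 h and 0, 5.23 and 1.45 CPM at 0 h. It rose in both strains and less in the mutant (log2 difference -4.37, SE 1.1, adjusted p = 0.0418). In replicates 1 and 2 at 0 h, 3 counts made 2.326 and 2.616 CPM in the wild type and 1.163 and 2.539 CPM in the mutant. These GRE1 values rest on few reads, so the difference is not read as a fold. The GRE1 call was lost with only the 4 groups fitted and without both 6 h replicates 1. The other 16 stress genes listed did not pass. HO (-2.50), the uncharacterised YDR222W (-3.08) and YBL029W (-2.10), and YOR302W, the short frame before CPA1 (-2.15), complete the 12 lowest. Of 31 amino acid synthesis genes without iron and 12 genes of the glyoxylate cycle, gluconeogenesis and fatty acid oxidation, none passed with edgeR, at medians of -0.52 and -0.21. At an unadjusted p under 0.05 there were 7 and 0, against 767 of all 5315 features, and DESeq2 called 2 and 0. Summed footprints of the amino acid list were 10730 to 17330 CPM in the mutant at 6 h and 21630 to 23620 CPM in the wild type. At 0 h these sums overlapped between the strains. All mutant 6 h libraries lay below all wild-type ones for 13 of the 31 genes and above them for 1 (8.96% and 7.92% over all features). MFA1, the a-factor gene, passed among 6 genes of mating type a (-1.71, adjusted p = 0.0349), and none of the 6 was higher. Single libraries ended several of these calls: HO was lost without any of 10, MFA1 without any of 8 and GRE1 and YOR302W without any of 7, mutant 0 h replicates 1 and 2 among them for each. YDR222W and YBL029W kept theirs throughout.

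RNA-seq of the same 4 groups used libraries of 113262 to 6571727 counts, in which 3 counts corresponded to 0.462 to 22.2 CPM. By itself it called 2 of 6006 features (0.0333%), TIS11 and the daughter-cell glucanase SCW11, with 470 at an unadjusted p under 0.05 and 45 calls with DESeq2. Leaving out a single library gave 0 to 48, the highest without mutant 0 h replicate 1 and the lowest without mutant 0 h replicate 3. The genes with different footprint responses nevertheless leaned the same way in RNA. Of the 118 higher in footprints, 117 had a positive RNA difference (the exception was PUF3 at -0.06), with a median of 1.34 against -0.08 over the features in both assays, and 74 had an unadjusted p under 0.05 in that direction, against 3.58% of all features; none passed after adjustment with edgeR and 18 passed with DESeq2. Of the 39 lower ones measured in RNA, 34 were negative (median -0.80), 12 had an unadjusted p under 0.05 in that direction, against 4.25% of all, and 1, TIS11, passed.

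For the mitochondrial ribosomal proteins the RNA median was 1.54, close to the footprint median of 1.69, and all 67 RNA differences were positive, 48 at an unadjusted p under 0.05. MRPS9 RNA stood at 149, 162 and 152 CPM in the mutant at 6 h and 152, 98.5 and 118 CPM at 0 h, against 37.1, 36.2 and 60.1 CPM in the wild type at 6 h and 182, 159 and 143 CPM at 0 h. The wild type at 6 h was low in every library, though its replicates 1 and 2 were small. In these, 3 counts made 22.24 and 10.84 CPM, so their MRPS9 values rest on few reads. MRPS9 RNA differed by 2.04 (SE 0.43, adjusted p = 0.0891) and SDH2 RNA by 2.29 (SE 0.57, adjusted p = 0.115). By contrast HEM1 RNA differed by 0.13 (SE 0.58), ATP2 RNA by 0.04 (SE 0.45) and PUF3 RNA by -0.06 (SE 0.65). The 4 DNA polymerase alpha-primase genes had RNA differences of -0.34 to 0.12, against -1.91 to -1.13 in footprints. Whether footprints differed beyond RNA was tested in 1 model over both assays, as translational efficiency. No gene of 5290 passed with edgeR or with DESeq2, and 92 had an unadjusted p under 0.05 with edgeR, so none of these gaps between assays was established.

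**Figure D5:**
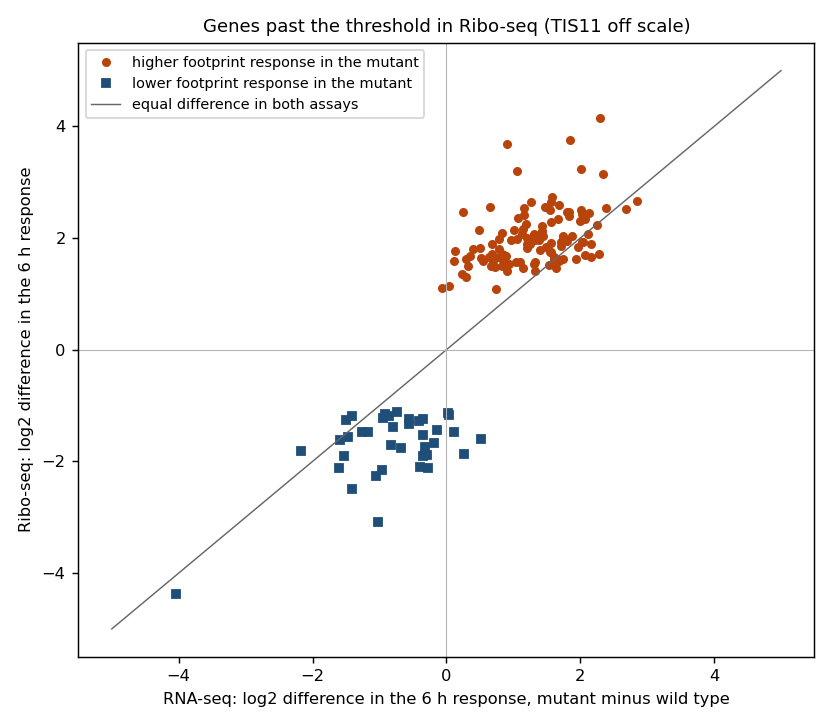
Log2 difference in the 6 h response by Ribo-seq (vertical axis) against RNA-seq (horizontal axis), mutant minus wild type, for the called genes measured in both assays except TIS11, which is off scale. The 118 genes with higher footprint responses have RNA differences with a median of 1.34, and 117 of them lie right of 0.

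The 3 h libraries give the earlier state, and the comparisons share the 0 h libraries. At 3 h the strain difference in response passed for 15 features (0.282%), 14 of them higher (0.263%), and ACO1, SDH2, SDH1, GLT1, LEU1, SDH4, ISA1, HEM1, LIP5, ILV3, FMP10 and NFU1 were among these. The list medians at 3 h and 6 h were 1.34 and 1.72 for succinate dehydrogenase and its assembly factors, 2.01 and 1.73 for iron-sulfur and haem enzymes of amino acid, biotin and lipoate synthesis, 0.62 and 1.69 for mitochondrial ribosomal proteins, and -0.51 and -1.81 for daughter-cell genes. No mitochondrial ribosomal protein gene passed at 3 h with edgeR. At an unadjusted p under 0.05 there were 19 of 67, against 197 of 5315 features, and no other tool was run at 3 h. The change from 3 h to 6 h did not differ between strains for any feature past the threshold with edgeR, with 345 at an unadjusted p under 0.05 and no other tool run, so a later onset of any group was not established.

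Sequence after the stop codon was compared in 5275 tested nuclear protein-coding genes, on the coding strand within 300 nt. TTATTTAT occurred in 384 of them (7.28%), in 26 of the 118 genes with higher responses (22.0%), in 2 of the 40 with lower responses (HTB1 and TIS11) and in 3 of the 67 mitochondrial ribosomal protein genes (4.48%). The reverse complement ATAAATAA occurred in 6.62% of all genes and in 5 of the 118 (4.24%). Put the other way, 6.77% of the genes with TTATTTAT were called higher, against 2.22% of all features tested. Most genes with the element were thus not called. With windows of 150 nt or 500 nt TTATTTAT occurred in 19 or 26 of the 118 (16.1% or 22.0%), against 4.64% or 8.95% of all genes. The shorter TATTTAT, which lies within it, occurred in 40 of the 118 (33.9%) and in 17.8% of all genes.

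TGTANATA was more common among the higher genes. It occurred in 93 of the 118 (78.8%) and 65 of the 67 mitochondrial ribosomal protein genes (97.0%), against 7 of the 40 lower genes (17.5%) and 920 of all 5275 (17.4%). Outside the mitochondrial ribosomal protein list it occurred in 56 of 81 higher genes (69.1%), and TTATTTAT in 24 of the 81 (29.6%). These 81 still include the 9 mitochondrial ribosomal proteins under other names, and all 9 carry TGTANATA. Both elements occurred in 12 of the 118, SDH1 and SDH2 among them, and in 70 of all genes. Of the genes with TGTANATA, 10.1% were called higher, against 2.22% of all features tested. The windows were cut at a fixed length and may reach into a neighbouring gene, a match does not show binding, and whether the genes differ for lack of the Cth proteins on their own mRNAs was not tested.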

How the data were processed

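Per the submitters' processing notes, cutadapt 3.4, Bowtie 1.1.2 and STAR 2.7.9a were used with build R64; the counting program and its use of strand and of multiply matching reads are not given in the sources used here. The authors deposited whole-number counts per feature for each library, used here as unnormalised counts. Replicates were taken from titles, and none agreed within sampling noise. Features passed filterByExpr (minimum count 10). Differences were tested with edgeR 4.0.16 (quasi-likelihood, TMM) in R 4.3.3, with all 18 libraries of an assay in 1 fit (12 residual degrees of freedom; 24 for translational efficiency over 36 libraries), Benjamini-Hochberg adjustment over all features and a threshold of 0.05. Standard errors are the log2 difference over the square root of F. Floors of 3 counts cover counting error only. Named genes were the 14 highest and 12 lowest calls reaching 20 CPM, the deleted genes and list members. Members and lists were chosen with earlier results of these data known. On simulated data for this comparison (5279 genes), 49.3% of genes changed by 2 log2 units and 1.52% of those changed by 1 were called. Alternatives were other scaling, DESeq2 1.42.0, no filter, fewer groups, blocks, thinning and leaving out libraries.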

Additional observations from a re-analysis of the deposited data

Results flagged for a closer look

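The 6 h footprint response differed between the strains for 158 genes, by a test of the difference itself, and the RNA response for 2 genes, TIS11 and SCW11. SCW11 RNA was 40.3, 22.3 and 52.9 CPM in the mutant at 6 h and 79.3, 277 and 231.1 CPM at 0 h, against 81.5, 343.4 and 147.7 CPM in the wild type at 6 h and 76.9, 38.5 and 87.2 CPM at 0 h (log2 difference -3.71, SE 0.67, adjusted p = 0.0366 by edgeR). The SCW11 call was lost in 12 of 20 alternatives, which were scaling by total counts, the fit of only the 4 groups, 9 single libraries left out and 6 h replicates 1 of both strains left out together, with an adjusted p of up to 0.199.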

How the results depend on the processing

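No named gene reversed under any alternative, and 44 of 81 named called genes stayed past the threshold under every alternative except thinning. For footprints, against 158 calls, DESeq2 gave 266, a fit of only the 4 groups compared 105, and thinning to the smallest library 2 with edgeR and, chosen after seeing the data, 15 with DESeq2. Leaving out a single library gave 81 to 348, and leaving out wild-type 6 h replicate 1 and mutant 6 h replicate 3 together gave 576, and wild-type and mutant 6 h replicates 1 together 335. For RNA, against 2 calls, total counts, the 4-group fit and leaving out both 6 h replicates 1 gave 1 each, DESeq2 45, and leaving out a library 0 to 48. For translational efficiency leaving out a library gave 0 to 1. The cause was not tested, except that thinning and smaller fits use fewer counts or libraries. With the replicate number as a block, 242 footprint calls (162 higher, 80 lower) and 4 RNA calls passed. This block called 10 of the 12 daughter-cell genes, against 4. The labels tie the numbers to no shared batch. Same-numbered footprint libraries deviated together at a mean r of 0.192, and 11 of 18 pairs exceeded 0.1 (15 of 18 in RNA). All 6 pairs of replicate 3 were among them. Genes were centred within each group of 3, so the mean of -0.097 for other numbers follows from the first and adds nothing. For 4 of 12 footprint libraries and 8 of 12 RNA libraries the same number correlated best in every other group, a hint from the data and not from the design. RLE factors gave 147 footprint calls and no filter 125. The smallest library held 607936 counts, in which 3 counts are 4.31 CPM. Without it 158 genes passed, 128 higher and 30 lower, and 129 of them were among the 158 of the main fit.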
